A study of Mus musculus with 18 samples.

Results

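The desaturases and elongases described here are 10 genes that lengthen and desaturate long-chain fatty acids, chosen by symbol from the 25266 genes listed for each of 18 mouse livers. They are the desaturase genes Fads1, Fads2, Fads3 and Scd2, the elongase genes Elovl1, Elovl2, Elovl3 and Elovl5, and Tecr and Hsd17b12, whose products carry out later steps of elongation. Scd1 and Elovl6, the paralogs most tied to lipogenesis, are not among them and appear below only for comparison. All 10 genes passed the filter that left 11090 genes for testing (an average RPKM over the 18 mice no lower than 0.5, where RPKM is reads per kilobase of gene length, scaled to the depth of the library).

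Male C57BL/6 mice formed 4 groups. FF mice carry floxed copies of Ppp6r3 (ppp6r3 fl/fl), the gene for SAPS3, a regulatory subunit of protein phosphatase 6, and served as controls. LKO mice carry the same floxed alleles and in addition a Cre recombinase driven by the albumin promoter, which acts in hepatocytes. Deletion in the other cells of the liver was not measured here. Both genotypes were fed either a control diet (CD, 10 kcal% fat) or a high-fat diet (HFD) with 32.5 kcal% fat. Feeding began at 8 weeks of age and lasted 16 weeks, and there were 4 FF CD, 4 LKO CD, 5 FF HFD and 5 LKO HFD mice. No batch or hour of tissue collection is given in the sources used here.

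Cells obtain long-chain polyunsaturated fatty acids by alternating desaturation and elongation of dietary linoleic and alpha-linolenic acid in the endoplasmic reticulum. Fads2 inserts the first new double bond, Elovl5 adds carbons, Fads1 inserts a further double bond to give arachidonic and eicosapentaenoic acid, and Elovl2 lengthens these on the way to docosahexaenoic acid, which is completed by shortening in peroxisomes. Each round of elongation needs a condensing enzyme of the Elovl family, the ketoacyl-CoA reductase Hsd17b12, a dehydratase of the Hacd family and the enoyl-CoA reductase Tecr. The liver is a main site of this synthesis, and its genes are known targets of the sterol-regulated factor SREBP-1c and of the fatty acid receptor PPAR-alpha.

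Depth was 23408000 to 36954000 reads per mouse, and group medians lay between 24860000 and 27090000 reads. Ppp6r3 itself was 8.38 to 11.0 RPKM in FF CD mice, 3.88 to 4.08 in LKO CD mice, 7.55 to 8.82 in FF HFD mice and 4.22 to 4.87 in LKO HFD mice, so each mouse matched the genotype in its label. This gene gives no check of the diet. The 6 hepatocyte markers summed to 33970 to 51100 RPKM over all mice, most of it albumin (Alb). Among them, Apoa1 (log2 difference -0.72, adjusted p = 0.00276, limma) and Cps1 (-1.24, adjusted p = 0.000157, limma) were called lower in FF HFD than in FF CD mice, the comparison in which members were called, and their part in those calls was not tested. The other hepatocyte markers, Alb (0.22), Ttr (0.11), Cyp2e1 (-0.02) and Ass1 (-0.32), were not called in it. RNA came from whole liver, in which fewer cells of a type and less RNA per cell cannot be told apart. Genes were compared with limma on log2(RPKM + 1) in a single fit of the 4 groups, and calls required both more than a 1.5-fold difference and, after Benjamini-Hochberg adjustment over all 11090 genes, a two-sided limma p below 0.05. The smallest p that the exact permutation tests of single genes can give is 0.0286 for 4 mice against 4, 0.0159 for 5 against 4 and 0.00794 for 5 against 5.

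Ranked by level, the 10 genes spanned most of the order of tested liver genes. By mean RPKM over all 18 mice, a scale per gene length, the order was Fads2 (541.5), Elovl5 (369.5), Fads1 (273), Elovl2 (238), Tecr (106.5), Hsd17b12 (106.5), Elovl3 (28.5), Elovl1 (15.1), Fads3 (4.77) and Scd2 (0.847). Fads2 ranked 83 and Scd2 ranked 10099 among the 11090 tested genes. The 4 genes of the polyunsaturated route, Fads2, Elovl5, Fads1 and Elovl2, were above the other 6 in every mouse. Among neighbours in this order, Elovl2 was above Tecr, Hsd17b12 above Elovl3, Elovl1 above Fads3 and Fads3 above Scd2 without overlap of their ranges over all mice. Tecr and Hsd17b12 were not separated, since Tecr was the higher in 9 of 18 mice. Fads2 was above Elovl5 in 17 mice, Elovl5 above Fads1 in 15, Fads1 above Elovl2 in 12 and Elovl3 above Elovl1 in 16.

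The genes also differed in how far mice of the same group lay apart. The within-group SD on the log2(RPKM + 1) scale was 0.61 for Elovl3, 0.43 for Elovl5, 0.39 for Fads2, 0.34 for Fads3 and 0.31 for Fads1, each larger than in at least 91.5% of tested genes. It was 0.13 for Elovl1 and for Tecr, which was exceeded by most tested genes. The added 1 compresses the spread of genes near 1 RPKM, so these ranks depend in part on level. Scd2 had an SD of 0.15 with a 2.70-fold range over all mice, and Fads2 an SD of 0.39 with a 2.58-fold range. Behind the levels of Elovl5 stood 8817 to 47571 reads per mouse, and behind those of Fads1 13745 to 35741. Scd2 rested on an estimated 54 to 151 reads per mouse and Fads3 on 158 to 643.

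**Figure D1:**
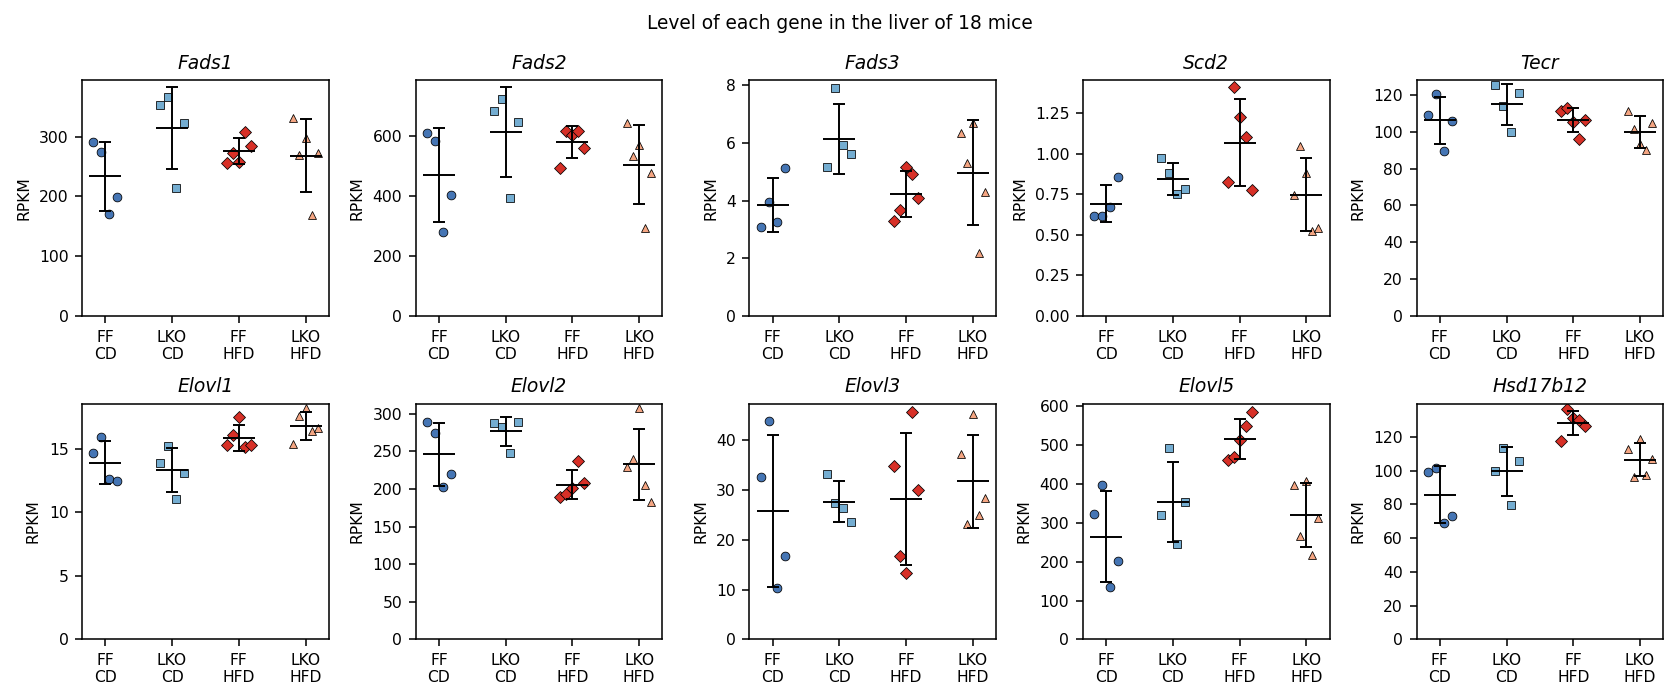
RPKM of the 10 genes in each liver, with a panel per gene, a point per mouse and bars for mean ± SD of the group (n = 4 for CD, n = 5 for HFD). Elovl5 and Hsd17b12 of the FF HFD mice lie above all FF CD mice (463 to 585 RPKM against 135 to 397 for Elovl5), and Elovl5 of the FF HFD mice also lies above all LKO HFD mice (218 to 409).

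The first question was how the high-fat diet changed these genes in FF control livers. Elovl5, the elongase that acts between the 2 desaturases of the polyunsaturated route, and Hsd17b12, the reductase of the elongation cycle, rose. They were 2 of 10 genes called, both higher, where 6.60% of all tested genes were called in this comparison and 5.11% were called higher. The other 8 genes did not pass the test. The median log2 difference of the 10 genes was 0.23, against 0.07 over all tested genes, and 9 of the 10 were above 0.

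Elovl5 lies on chromosome 9 (GRCm38, chr9:77917364-77984519, plus strand). The FF CD mice held 322, 397, 135 and 202 RPKM, and the FF HFD mice 463, 471, 513, 549 and 585 RPKM. The groups did not overlap, and the FF CD mice were the more dispersed, at 264 ± 117 RPKM (SD, n = 4) against 516 ± 51.6 (SD, n = 5). The difference was 2.11-fold, a log2 difference of 1.08 ± 0.26 (SE) with an adjusted p of 0.00768 (limma), and the exact permutation p was 0.0159 for 5 against 4 mice. With any single mouse left out, Elovl5 was called in 18 of 18 fits, at a log2 difference of 0.79 to 1.31.

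Hsd17b12 lies on chromosome 2 (chr2:94032689-94157964, minus strand). It stood at 98.9, 102, 69.1 and 73.1 RPKM in FF CD mice and at 118, 136, 131, 129.9 and 126 RPKM in FF HFD mice. The groups again did not overlap, with every FF HFD mouse the higher. Its log2 difference was 0.60 ± 0.12 (SE) with an adjusted p of 0.00265 (limma), and the exact permutation p was 0.0159 for 5 against 4 mice. The fold change of 1.51 stood just past the threshold of 1.5, and the gene was no longer called without FF CD mouse 3 (log2 difference 0.50), FF CD mouse 4 (0.53) or FF HFD mouse 2 (0.57), while its adjusted p stayed at or below 0.0152 in the 18 fits that leave out a mouse (limma). Of all tested genes, 14.0% had every FF HFD mouse above every FF CD mouse, as these 2 of 10 did.

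The sequence before the start of these called genes is shown because both moved in the same comparison. RefSeq (GRCm38.p6) promoter windows were found for 7 of the 10 genes, not for Elovl3, Fads1 and Scd2. Printed are the 195 bases from 250 to 56 bases before the RefSeq start, which lie outside annotated transcripts of the gene, at chr9:77917115-77917309 (plus strand) for Elovl5 and chr2:94157965-94158159 (minus strand) for Hsd17b12. Capitals mark matches, on either strand, to CCAAT (the box bound by NF-Y), CACGTG (an E-box), TCACNCCAC (a sterol regulatory element) or AGGTCA (a core element of nuclear receptors).
Elovl5: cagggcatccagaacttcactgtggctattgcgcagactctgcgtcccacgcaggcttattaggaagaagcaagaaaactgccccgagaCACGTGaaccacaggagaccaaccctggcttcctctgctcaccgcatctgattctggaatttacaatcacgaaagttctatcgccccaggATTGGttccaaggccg
Hsd17b12: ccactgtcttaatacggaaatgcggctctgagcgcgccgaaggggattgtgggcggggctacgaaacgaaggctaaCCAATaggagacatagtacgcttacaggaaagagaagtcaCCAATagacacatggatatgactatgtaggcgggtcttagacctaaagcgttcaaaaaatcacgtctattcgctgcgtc
Elovl5 holds 1 CCAAT, read on the opposite strand as ATTGG, and 1 CACGTG, and Hsd17b12 holds 2 CCAAT. Of members that were not called, Fads3 holds 2 CCAAT and Tecr 1 in the same window. Neither window holds TCACNCCAC or AGGTCA, Hsd17b12 holds no CACGTG, and no motif match overlaps another in them. Of the same window of 32851 RefSeq promoters, 27.6% hold CCAAT (6.53% hold 2 or more), 4.17% CACGTG, 0.764% TCACNCCAC and 11.1% AGGTCA. The matches are letters in a window and carry no measurement of binding.

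The desaturases of the same route moved less than the spread between mice. Fads1 and Fads2 lie side by side on chromosome 19 (chr19:10182888-10196877 and chr19:10062765-10101746). Fads2, which opens the route, was 611, 585, 281 and 403 RPKM in FF CD mice and 493, 617, 606, 619 and 562 RPKM in FF HFD mice. These ranges overlap, and the 2 low FF CD mice, 3 and 4, were also low in Elovl5 and Hsd17b12. Its log2 difference was 0.36 with a 95% interval of -0.14 to 0.87 (adjusted p = 0.309, limma), an interval that includes the value of Hsd17b12. Fads1 differed by 0.27 (interval -0.14 to 0.68, adjusted p = 0.356, limma).

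Elovl2 continues where Elovl5 and Fads1 leave off, and its values lay the other way. It lies on chromosome 13 (chr13:41182381-41220405, minus strand). It was 289, 274, 202 and 219.9 RPKM in FF CD mice and 189, 193, 201, 237 and 208 RPKM in FF HFD mice, a log2 difference of -0.25 (interval -0.54 to 0.04, adjusted p = 0.214, limma). It was the lone gene of the 10 with a value below 0 in this comparison. Tecr, the last enzyme of each elongation round, averaged 106 ± 12.8 RPKM (SD, n = 4) on CD and 106 ± 6.56 (SD, n = 5) on HFD in FF mice. The interval of its log2 difference was -0.20 to 0.21.

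The remaining genes serve other fatty acids. In GRCm38, Scd2 (chr19:44293674-44306864) and Elovl3 (chr19:46131897-46135694) lie on the chromosome of the Fads genes and Elovl1 (chr4:118428093-118432953) on chromosome 4, all on the plus strand. Scd2, a stearoyl-CoA desaturase best known from the brain and early life, was the nearest to a call: 0.617, 0.619, 0.675 and 0.859 RPKM in FF CD mice and 0.825, 1.41, 1.23, 1.11 and 0.778 RPKM in FF HFD mice. Its groups overlapped, and its log2 difference of 0.28 had an adjusted p of 0.0511 (limma). The value was 0.54 with a pseudocount of 0.1, 0.59 by limma voom and 0.14 after quantile normalization, and the adjusted p ran from 0.0205 to 0.248 over the settings other than leaving out a mouse, with no call in any of them. At under 1.5 RPKM the addition of 1 to each value compresses this difference. In FF mice the summed levels of every marker list of cells other than hepatocytes had higher medians on HFD than on CD, as Scd2 had. The cholangiocyte median was 20.62 RPKM in FF CD and 27.17 in FF HFD mice. The lymphocyte median was 1.435 and 1.712 RPKM, and the adipocyte median 0.129 and 0.98 RPKM. The 7 stellate cell markers summed to 11.3 to 19.9 RPKM in FF CD and 19.0 to 39.4 RPKM in FF HFD mice, with 3 of 7 called higher, and the 5 endothelial markers summed to 12.0 to 25.4 and 31.8 to 50.3 RPKM, with 3 of 5 called higher. The stellate calls were the collagen genes Col1a1, Col1a2 and Col3a1, while Lrat, Des, Pdgfrb and Reln were not called. The macrophage and Kupffer cell markers summed to 28.0 to 37.8 RPKM in FF CD and 32.8 to 69.0 RPKM in FF HFD mice, with 2 of 6 tested called higher, Vsig4 (0.72) and Adgre1 (0.62). In LKO mice the median macrophage sum was 28.46 RPKM on CD and 53.35 on HFD, and the median endothelial sum 20.12 and 26.78. The median stellate sum was 20.41 and 14.38 RPKM, and mean Scd2 was 0.846 and 0.749 RPKM. The part of these cell types in the level of Scd2 was not tested. Of the adipocyte markers, the defining genes Adipoq and Plin1 were at 0 in all FF CD mice and reached 0.76 and 0.113 RPKM at most in FF HFD mice.

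Elovl1, which elongates saturated very long chains, differed by 0.18 on the log2 scale (adjusted p = 0.177, limma), Fads3, a desaturase of sphingoid bases, by 0.11 (adjusted p = 0.745, limma), and Elovl3, which serves saturated and monounsaturated very long chains, by 0.18 (adjusted p = 0.765, limma). Elovl3 was 32.5, 43.8, 10.2 and 16.7 RPKM in FF CD mice and 34.9, 16.7, 13.4, 45.5 and 29.97 RPKM in FF HFD mice. Both groups thus covered nearly the same range, and the direction turned without FF CD mouse 3 or without FF HFD mouse 4. Elovl3 is known in mouse liver as a male-biased and daily cycling gene. Of 12 other male-biased genes, 10 were called lower in FF HFD than in FF CD mice, among them Hsd3b5 (132.7 ± 26.7 RPKM, SD, n = 4, against 1.71 ± 1.66, SD, n = 5). Of 11 tested clock genes, 0 were called in this comparison by limma or limma voom. An adjusted p under 0.05 was found for 1 of them, against 20.6% of all tested genes (limma). An unadjusted p under 0.05 was found for 3 of them, against 33.7% (limma).

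**Figure D2:**
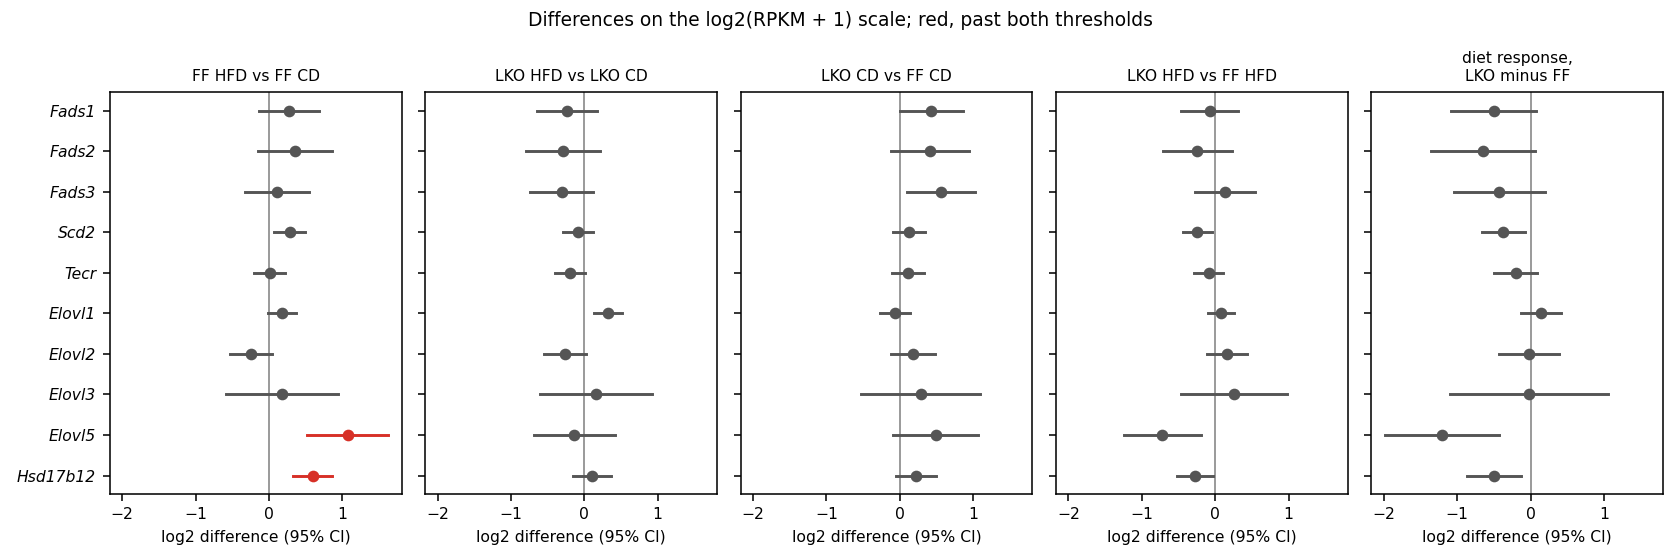
Log2 differences of the 10 genes on the log2(RPKM + 1) scale in the 4 comparisons of groups and in the difference between the diet responses, with 95% intervals from limma. Red marks genes past both thresholds, which are Elovl5 and Hsd17b12 in FF HFD against FF CD, at 1.08 and 0.60.

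The same diet was next compared in LKO livers. In LKO mice none of the 10 genes was called between HFD and CD (limma), where 1.27% of tested genes were. At an unadjusted p under 0.05 there was 1 gene of the 10, Elovl1, where 22.3% of tested genes had such a p (limma). Limma voom on estimated reads gave 0 calls as well. The median log2 difference of the 10 genes was -0.17, against 0.07 over all tested genes, with 3 of the 10 above 0.

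Elovl5 was 320.1, 492, 247 and 353 RPKM in LKO CD mice and 397, 267, 409, 218 and 311 RPKM in LKO HFD mice. The groups overlapped throughout, and the log2 difference was -0.13 with an interval of -0.69 to 0.42 (adjusted p = 0.806, limma). The sign turned without LKO CD mouse 2 (0.04). Hsd17b12 was at 99.7 ± 14.6 RPKM (SD, n = 4) in LKO CD and 107 ± 9.64 (SD, n = 5) in LKO HFD mice, a log2 difference of 0.10 with an interval of -0.16 to 0.36.

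Elovl1 was the 1 gene of the 10 whose diet groups did not overlap in LKO mice. That is near the share of all tested genes without overlap in either direction, 9.04%. Elovl1 stood at 13.8, 15.2, 11.1 and 13.0 RPKM in LKO CD mice and at 15.4, 17.5, 18.2, 16.4 and 16.6 RPKM in LKO HFD mice, all of the latter above all of the former. The log2 difference was 0.32 ± 0.09 (SE), short of the fold threshold and with an adjusted p of 0.0566 (limma). The exact permutation p was 0.0159 for 5 against 4 mice, and 7.71% of tested genes were equally without overlap and higher on HFD. For the rest, Fads1 (-0.23), Fads2 (-0.29), Fads3 (-0.31), Elovl2 (-0.27), Tecr (-0.20) and Scd2 (-0.09) had log2 differences below 0 and Elovl3 (0.16) one above 0, with adjusted p between 0.247 and 0.836 (limma).

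The difference between the diet responses of the genotypes was then tested as an interaction. None of the 10 genes was called (limma), where 2.44% of tested genes were. An unadjusted p under 0.05 was found for 16.5% of tested genes (limma) and for 3 of the 10, namely Elovl5, Hsd17b12 and Scd2. Limma voom gave 0 calls and the same count at an unadjusted p under 0.05. The response of Elovl5 to HFD was lower in LKO than in FF mice by a log2 value of -1.21 ± 0.37 (SE), with an interval of -1.99 to -0.43 and an adjusted p of 0.0932 (limma). It was called after rescaling of each mouse to the same summed RPKM (-1.28, adjusted p = 0.0420, limma) and without FF CD mouse 2 (-1.44, adjusted p = 0.0329, limma). Over the planned settings other than leaving out a mouse the adjusted p ran from 0.0420 to 0.180 (limma), and over the fits that leave out a mouse from 0.0329 to 0.215 (limma). Hsd17b12 had an interaction of -0.49 (interval -0.86 to -0.12, adjusted p = 0.152, limma) and Scd2 one of -0.37 (interval -0.67 to -0.07, adjusted p = 0.184, limma). The median over the 10 genes was -0.40, against -0.01 over all tested genes, and Elovl1 alone of the 10 had a value above 0.

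Between genotypes on the control diet, none of the 10 genes was called (limma), where 0.225% of tested genes were. Fads3 was the 1 gene with an unadjusted p under 0.05, where 7.67% of tested genes had one (limma). Limma voom gave 2 such genes, and both tools gave 0 calls. Fads3 lies next to Fads2 (chr19:10041569-10060110, plus strand). Its levels were 3.08, 3.96, 3.24 and 5.12 RPKM in FF CD mice and 5.15, 7.89, 5.91 and 5.60 RPKM in LKO CD mice. Every LKO CD mouse was above every FF CD mouse, though the closest pair lay at 5.12 and 5.15 RPKM, and 3.37% of tested genes were likewise separated and higher in LKO CD mice. The log2 difference was 0.56 ± 0.22 (SE) with an adjusted p of 0.481 (limma), and the exact permutation p of 0.0286 for 4 against 4 mice is the smallest this size allows. Fads1 (0.43), Fads2 (0.41) and Elovl5 (0.49) had log2 differences of similar size, with intervals that include 0 and adjusted p of 0.652, 0.780 and 0.751 (limma). The median of the 10 was 0.25, against 0.03 over all tested genes, with 9 above 0 and Elovl1 at -0.06.

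Between genotypes on the high-fat diet, again none of the 10 genes was called (limma), where 2.07% of tested genes were. Elovl5, Hsd17b12 and Scd2 had an unadjusted p under 0.05, where 19.3% of tested genes had one (limma). The same count of 3 came from limma voom, which gave 0 calls. Elovl5 was at 516 ± 51.6 RPKM (SD, n = 5) in FF HFD and 320.5 ± 82.4 (SD, n = 5) in LKO HFD mice. All 5 LKO HFD mice were below all 5 FF HFD mice, with 409 RPKM in the highest of the former and 463 in the lowest of the latter, and 2.02% of tested genes were separated in this direction. The log2 difference was -0.72 ± 0.25 (SE) with an adjusted p of 0.114 (limma), and the exact permutation p of 0.00794 for 5 against 5 mice is the smallest this size allows. Over the other settings and the left-out mice the adjusted p of Elovl5 ran from 0.0504 to 0.259 (limma).

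Hsd17b12 was lower in LKO HFD mice in all but 1 of the 25 pairings of an LKO with an FF mouse. Its LKO HFD values of 113, 96.4, 119, 97.6 and 107 RPKM stood against 118 to 136 RPKM in FF HFD mice, a log2 difference of -0.27 (interval -0.52 to -0.02, adjusted p = 0.217, limma, exact permutation p = 0.0159 for 5 against 5 mice). Scd2 had a log2 difference of -0.24 (adjusted p = 0.163, limma) with overlapping groups, beside 3 of 7 stellate markers called lower in LKO HFD mice. These were the collagen genes Col1a1, Col1a2 and Col3a1, while Lrat, Des, Pdgfrb and Reln were not called. Of 6 tested macrophage and Kupffer cell markers and 5 endothelial markers, 0 were called. The part of these cell types in the level of Scd2 on HFD was not tested. Fads1 (-0.07), Fads2 (-0.24), Fads3 (0.14), Elovl1 (0.08), Elovl2 (0.16), Elovl3 (0.26) and Tecr (-0.09) had adjusted p of 0.520 to 0.862 (limma). The 4 comparisons share groups, so that the low and dispersed FF CD mice enter both the diet response of FF mice and the genotype difference on CD.

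Mice of the same group tended to be high or low together in Fads1, Fads2, Elovl5 and Hsd17b12. Deviations from the group means of log2(RPKM + 1) were correlated for all 45 pairs of the 10 genes over 18 mice, with mice permuted within groups 100000 times. By Pearson's r, as in all counts of pairs below, the correlation was positive with an adjusted p under 0.05 for 14 pairs. It was negative at that level for 0 pairs. The same count over pairs of all tested genes was not made, so how usual 14 of 45 is cannot be said. Some of the 14 did not pass by Spearman's rho, such as Elovl2 with Elovl5 (adjusted permutation p = 0.0507) and Fads1 with Tecr (adjusted permutation p = 0.109). Elovl2 passed with Fads1 and with Fads2 by rho alone. The closest pair was Fads1 and Fads2, neighbours on chromosome 19, with Pearson's r = 0.97 (adjusted permutation p = 0.00135) and Spearman's rho = 0.95 (adjusted permutation p = 0.00225). Of 11089 other tested genes, Fads1 was the one most correlated with Fads2 within groups. Elovl5 and Hsd17b12, on different chromosomes, had r = 0.91 (adjusted permutation p = 0.00285) and rho = 0.88 (adjusted permutation p = 0.0156). Elovl5 and Fads2 had r = 0.87 (adjusted permutation p = 0.00315) and rho = 0.82 (adjusted permutation p = 0.0189). By r with Elovl5 within groups, Hsd17b12 ranked 5 and Fads2 ranked 8 of 11089 genes. By r with Hsd17b12, Fads2 ranked 19.

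These 4 genes were singled out after the correlations were seen. All 6 pairs among Fads1, Fads2, Elovl5 and Hsd17b12 had r of 0.82 to 0.97 and rho of 0.82 to 0.95, with adjusted permutation p up to 0.0116 and 0.0199. Without the 2 mice farthest from the median of the first gene r was 0.80 to 0.94. Within CD mice alone (n = 8) r was 0.89 to 0.99 and within HFD mice alone (n = 10) 0.60 to 0.94, and no pair of the 45 passed the adjustment in either subset, where 20 and 7 pairs had an unadjusted permutation p under 0.05 and the smallest adjusted permutation p values were 0.0581 and 0.0786. Mouse 3 of the FF CD group and mouse 3 of the LKO CD group were the lowest of their groups in all 4 genes, as was mouse 1 of the FF HFD group. Mouse 4 of the LKO HFD group was the lowest in Fads1, Fads2 and Elovl5 and the next to lowest in Hsd17b12. Deviations of the 4 genes correlated with those of depth at r = 0.19 to 0.31 and with those of the summed RPKM at 0.37 to 0.51 (n = 18), whose part was not tested. After centring of each mouse on its median, 7 of the 45 pairs passed and the 6 pairs kept r of 0.78 to 0.96.

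Elovl2, Elovl3, Elovl1 and Tecr had r of 0.50 to 0.77 with these 4 genes, and the adjusted permutation p ran from 0.0309 to 0.148. For Elovl1, r with the 4 genes was 0.88 to 0.93 within CD mice alone and -0.10 to 0.21 within HFD mice alone. For Elovl2, r was 0.65 with Fads1 and 0.68 with Fads2 (adjusted permutation p = 0.0690 and 0.0543), with rho of 0.73 and 0.78 (adjusted permutation p = 0.0414 and 0.0199). Fads3 and Scd2 had no pair with an adjusted p under 0.05, and their r over all mice ranged from -0.29 to 0.53. For Fads3, r with the 4 genes was -0.02 to 0.23 within CD mice alone and 0.63 to 0.94 within HFD mice alone. No pair passed the adjustment within either diet.

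**Figure D3:**
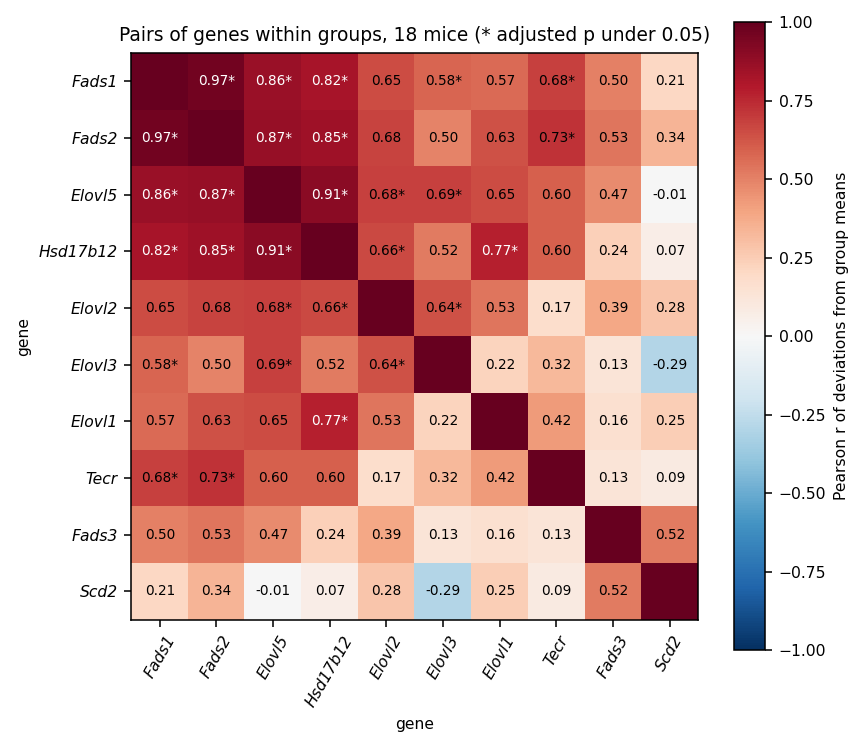
Pearson's r between the deviations of each pair of genes from their group means (18 mice), with blue for negative and red for positive values. Fads1, Fads2, Elovl5 and Hsd17b12 form a block with r of 0.82 to 0.97, and asterisks mark the 14 pairs with an adjusted permutation p under 0.05.

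Because mice moved together in these genes, ratios within a mouse were also computed. They were chosen after the values were seen and are given as a description without a test. Elovl5 per Elovl2 was 1.12, 1.45, 0.669 and 0.919 in FF CD mice, and 1.11, 1.75, 0.996 and 1.22 in LKO CD mice. It was 2.44, 2.44, 2.55, 2.31 and 2.82 in FF HFD mice, and 1.74, 1.11, 1.33, 1.06 and 1.70 in LKO HFD mice. All 5 FF HFD mice thus lay above all 13 other mice, which reached 1.75, and the LKO HFD mice lay within the range of the CD mice. Elovl5 per Fads2 gave the same separation, with 0.763 to 1.04 in FF HFD mice and 0.467 to 0.739 in the other 13. Other ratios did not set the FF HFD mice apart. Hsd17b12 per Tecr was 1.06 to 1.35 in FF HFD mice and 0.951 to 1.28 in LKO HFD mice, both reaching above the CD mice (0.691 to 0.997). Elovl5 per Elovl6 was 15.5 ± 4.51 (SD, n = 5) in FF HFD and 15.5 ± 3.40 (SD, n = 5) in LKO HFD mice, against 3.66 ± 1.30 (SD, n = 4) in FF CD and 6.28 ± 2.66 (SD, n = 4) in LKO CD mice. Fads1 per Fads2 had group means of 0.478 to 0.537, and Fads2 per Scd1 means of 0.174 to 0.316 with overlapping groups.

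Among the elongases, counting Elovl6 with the members, Elovl5 made up 40.9% ± 6.93 (SD, n = 4) of the summed Elovl RPKM of the FF CD group and 64.4% ± 1.53 (SD, n = 5) of that of the FF HFD group. In LKO mice it made up 47.6% ± 6.74 (SD, n = 4) on CD and 51.1% ± 5.06 (SD, n = 5) on HFD. The share of Elovl2 was 40.9% ± 6.28 (SD, n = 4) on CD and 25.7% ± 1.41 (SD, n = 5) on HFD in FF mice.

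**Figure D4:**
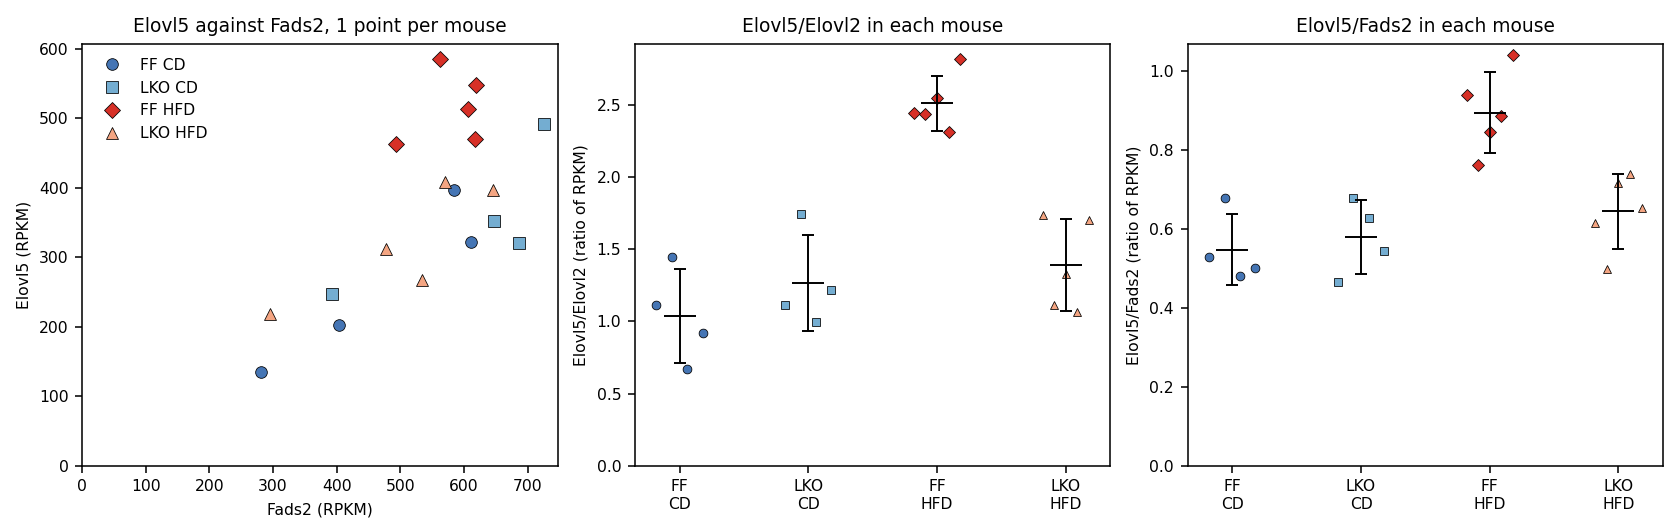
Left, Elovl5 against Fads2 in RPKM with a point per mouse. Middle and right, the ratios Elovl5/Elovl2 and Elovl5/Fads2 in each mouse with mean ± SD of the group, where the 5 FF HFD mice (2.31 to 2.82 and 0.763 to 1.04) lie above the other 13 mice (up to 1.75 and 0.739).

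Genes most like Elovl5 over all 18 mice were Insig2 (r = 0.93), Hsd17b12 (0.92) and S100a10 (0.91), and those most like Hsd17b12 were Insig2 (0.95), Hsd17b4 (0.94) and Lipa (0.93), of 11089 genes compared. These r include the differences between groups and are given without a test. Insig2, which holds the SREBP escort protein in the endoplasmic reticulum, was also the gene most correlated with Elovl5 within groups (r = 0.92 over 18 mice). It was 23.9 ± 9.55 RPKM (SD, n = 4) in FF CD and 68.6 ± 11.3 (SD, n = 5) in FF HFD mice and was called higher (log2 difference 1.55, adjusted p = 0.000479, limma). In LKO HFD mice it was at 37.8 ± 12.4 RPKM (SD, n = 5) and was called lower than in FF HFD mice (-0.89, adjusted p = 0.0458, limma).

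Paralogs outside the set differed among themselves. Elovl6, which elongates palmitate, was 74.2 ± 25.8 RPKM (SD, n = 4) in FF CD and 35.8 ± 12.1 (SD, n = 5) in FF HFD mice, and 60.4 ± 15.0 (SD, n = 4) in LKO CD and 20.7 ± 4.11 (SD, n = 5) in LKO HFD mice. It was called lower on HFD in both genotypes, with log2 differences of -1.02 (adjusted p = 0.0101, limma) and -1.48 (adjusted p = 0.0113, limma). It was the 1 called gene among 4 tested of 9 paralogs. Scd1, the main hepatic stearoyl-CoA desaturase, was not called in any comparison. Between the diets its log2 difference was 0.26 in FF mice (adjusted p = 0.575, limma) and -0.96 in LKO mice (adjusted p = 0.0688, limma). In LKO HFD against FF HFD mice it was -0.90 (adjusted p = 0.0741, limma), and the interaction was -1.22 (adjusted p = 0.132, limma), beside -0.72 and -1.21 for Elovl5. The other tested paralogs, Degs1 and Fads6, had log2 differences of 0.19 and -0.0049 in FF HFD against FF CD (adjusted p = 0.223 and 0.980, limma).

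Partners of the same reactions were measured as fixed lists. Of 3 tested dehydratases (Hacd1, Hacd2 and Hacd3) and of the 3 electron donors to the desaturases (Cyb5a, Cyb5b and Cyb5r3), 0 were called in the 4 comparisons of groups, by limma or by limma voom. At most 2 of the dehydratases and 1 of the donors had an unadjusted p under 0.05 in any of them. Over these comparisons 7.67% to 33.7% of all tested genes had such a p (limma). In peroxisomal shortening, which completes docosahexaenoic acid, Acaa1b (log2 difference 1.43) and Hsd17b4 (0.87) were called higher in FF HFD than in FF CD mice. Between the diets in LKO mice they had log2 differences of -0.25 (adjusted p = 0.570, limma) and 0.17 (adjusted p = 0.411, limma). Both were called in the interaction, at -1.68 and -0.70. Of 8 genes that activate polyunsaturated fatty acids or place them in phospholipids, Acsl1 was called higher in FF HFD than FF CD mice (0.72) and Acsl4, which prefers arachidonic acid, higher in LKO HFD than FF HFD mice (0.61).

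Of 5 genes of fatty acid synthesis, Fasn (-1.09) and Acly (-0.80) were called lower in FF HFD than FF CD mice, Acly in LKO mice between the diets (-1.18), and Me1 in LKO HFD against FF HFD mice (-0.83). Fasn differed by -1.06 between the diets in LKO mice, without a call (adjusted p = 0.0754, limma). Its interaction was 0.03 (adjusted p = 0.985, limma). Of 10 regulators, Insig2 was called higher and Insig1 (-0.96), Mlxipl (-0.67) and Srebf1 (-0.94) lower in FF HFD than FF CD mice. Between the diets in LKO mice Srebf1 differed by -1.04, without a call (adjusted p = 0.0633, limma). Its interaction was -0.09 (adjusted p = 0.941, limma). Insig2 (0.27), Insig1 (-0.24) and Mlxipl (0.15) were not called between the diets in LKO mice, and of these Mlxipl was called in the interaction (0.81). Srebf2 was called higher on HFD in LKO mice (0.71). In LKO HFD against FF HFD mice Insig1 was called higher (1.06) and Insig2 lower.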

How the data were processed

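Whole-liver RNA was sequenced in 18 mice. The authors aligned reads to mm10 with HISAT2 2.0.4 and used Partek, and they deposited 1 table of RPKM per mouse. Annotation, strand setting and treatment of multiply matching reads are not given in the sources used here, and the labels name a small RNA kit beside standard RNA-seq. RPKM were used as deposited. Depth and reads were recovered from the steps between low values, and reads came out whole (mean distance up to 0.05) for 81.2% of tested genes.

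Genes averaging 0.5 RPKM or more were fitted as log2(RPKM + 1) by limma 3.58.1 (R 4.3.3, mean-variance trend, 1 fit of all groups). Single genes were compared by exact permutation and pairs of genes by permutation (scipy 1.17.1, Python 3.11.15). In data simulated for FF HFD against FF CD (11090 genes), 93% of genes changed by a log2 value of 1 and 100% of those changed by 2 were called. The changed genes had a mean log2(RPKM + 1) above 2, and the noise was normal and independent between genes. Genes as low as Scd2, smaller changes and the interaction were not simulated. The members and all lists were chosen with earlier results of these data known. Named are all members, the 3 genes most like each called member, and up to 4 called genes per list. Alternatives were a pseudocount of 0.1, no filter or a filter at 1, rescaling, quantile normalization, centring, fewer groups, no moderation, a replicate block, the adjusted p alone, limma voom, and leaving out each mouse. Replicate numbers did not pair the mice. A result of the peroxisomal list is not reported here.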

Additional observations from a re-analysis of the deposited data

Results flagged for a closer look

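Elovl2 in LKO CD mouse 3 was 247.7 RPKM, and its gap to the nearest of the other 3 mice of its group took up most of the range of the group. It was the 1 such value among 40 tests of a gene in a group, of which chance gives about 2. The same mouse was the lowest of its group in Fads1, Fads2, Elovl5 and Hsd17b12. Its part in these values was not tested.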

How the results depend on the processing

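The 2 genes called in FF HFD against FF CD fell to 1, Elovl5, after centring on the median and in the fits without FF CD mouse 3, FF CD mouse 4 or FF HFD mouse 2, so that leaving out a mouse gave 1 to 2. The interaction went from 0 to 1, again Elovl5, after rescaling to the same sum, and ranged from 0 to 1 over left-out mice. The other 3 comparisons gave 0 in every setting run. Pairs moving together by Pearson's r went from 14 to 7 after centring on the median and to 0 with only CD mice or only HFD mice. Replicate numbers did not pair the mice (r of deviations -0.11 to 0.27 over 17 pairs, 5 of 18 mice nearest to their own number), and a replicate block gave 2, 0, 0, 0 and 0 calls. An interaction fit on fewer groups was not possible.

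Signs turned for values near 0. Tecr in FF HFD against FF CD was -0.083 centred on the median, and under quantile normalization the interactions of Elovl2 and Elovl3 were 0.0286 and 0.0032. With a mouse left out, Tecr in FF HFD against FF CD ran from -0.0707 to 0.0709 and Elovl3 from -0.17 to 0.50. Elovl5 and Hsd17b12 between diets in LKO mice ran from -0.29 to 0.0402 and from -0.00091 to 0.17. Between genotypes on CD, Elovl1 ran from -0.13 to 0.0174 and Elovl3 from -0.0684 to 0.60, and on HFD Fads1 from -0.16 to 0.084. The interactions ran from -0.13 to 0.0694 for Elovl2 and from -0.34 to 0.33 for Elovl3. The cause was not tested. Scd2 and Fads3 rested on the fewest reads.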
